A study of Homo sapiens with 6 samples.

Results

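mTOR, the kinase encoded by *MTOR*, works in 2 protein complexes that tell a cell whether it can grow. With RPTOR it forms mTORC1, which switches on the S6 kinases (*RPS6KB1*, *RPS6KB2*) and so raises translation, and with RICTOR it forms mTORC2, which acts on AKT. TSC1 and TSC2 hold mTORC1 back through the small GTPase RHEB. The MNK kinases (*MKNK1*, *MKNK2*) lie on the MAP kinase arm and phosphorylate the cap-binding factor EIF4E. Several of these genes are known for splice forms that differ in function, among them short S6K1 forms and the a and b forms of MNK2, both known targets of the splicing factor SRSF1, and SAM68 (*KHDRBS1*) is an RNA-binding protein that takes part in splice site choice.

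These 9 genes were followed in NCI-H1975, an established human lung adenocarcinoma (LUAD) cell line, which the labels spell NCl-H1975. Cells received PCDNA3.1-SAM68 plasmid or, as control, PCDNA3.1 plasmid, both at 2 µg per well by lipid transfection, and RNA was taken after 48 h. Each group had 3 libraries, which the study's methods call biological replicates. All cells were transiently transfected, so the SAM68 group holds both the cells' own SAM68 and the plasmid's. The deposited rMATS tables count reads that cross the exon junctions of an inclusion form and a skipping form, for skipped exons (SE), mutually exclusive exons (MXE), alternative 3ʹ or 5ʹ splice sites (A3SS, A5SS) and retained introns (RI). The members were all rows of the 9 genes with a mean of at least 10 such reads over the 6 libraries, 125 of 141 listed, out of 66395 events with as many reads in all genes. The rule used no difference between the groups. The percent spliced in (PSI) is the share of the inclusion form after each count is divided by its effective length. A change is the mean PSI of the SAM68 libraries less that of the control libraries, in percentage points.

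The overexpressed gene was seen in the reads. Junction reads of *KHDRBS1* were 311, 328 and 316 reads per 1000000 (rpm) in the control libraries and 1230, 1260 and 1276 rpm in the SAM68 libraries, a 3.94-fold higher level (log2 difference 1.98, SE 0.0473, adjusted p = 1.08e-21, limma). The SE table held 16951876 to 19737729 junction reads per library. Rpm was instead counted over the most-read events of all genes, which together held 5449394 to 6337424 reads per library. Of 15 marker genes for epithelial, lung and other cells, 3 had a listed event: *KRT8* and *KRT18* together reached 729 to 991 rpm in control and 758 to 769 rpm in SAM68 libraries, and the lung marker *NAPSA* stayed under 1 rpm. The defining markers of blood, stromal and endothelial cells had no listed event, and a gene with no event has no value in these tables. *KRT8* was at 520 rpm in the first listed control library and at 229 to 253 rpm in the other libraries.

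The sequences below are those of the splice choices that the results turn on, read from hg38 5ʹ to 3ʹ. Capitals mark exon bases and lower case marks intron bases, except that in the 3 pairs of neighbouring acceptors the capitals mark the 3 bases lying between both sites. Exon numbers are those of the canonical transcript in GENCODE 44. For *RPS6KB1* exons 6a and 6c and for both last exons of *MKNK2* only the start is shown.
MKNK2, last exon of the a form, chr19:2039797-2039876, minus strand: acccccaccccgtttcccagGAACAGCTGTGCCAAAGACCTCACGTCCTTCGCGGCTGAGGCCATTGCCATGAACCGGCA
MKNK2, last exon of the b form, chr19:2037800-2037829, minus strand: GTGGGACAGTCACTTCCTCCTCCCTCCCCA
MKNK1 exon 12, chr1:46560214-46560297, minus strand: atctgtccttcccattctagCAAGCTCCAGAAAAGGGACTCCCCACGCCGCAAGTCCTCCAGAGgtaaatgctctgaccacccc
RPS6KB1 exon 6a acceptor, chr17:59930338-59930367, plus strand: catcattcctttgcccttagGCTTGAGTGG
RPS6KB1 exon 6c acceptor, chr17:59930780-59930809, plus strand: attccattgtttaatttcagGCCTTTTCTA
RPS6KB1 exon 4, chr17:59914615-59914723, plus strand: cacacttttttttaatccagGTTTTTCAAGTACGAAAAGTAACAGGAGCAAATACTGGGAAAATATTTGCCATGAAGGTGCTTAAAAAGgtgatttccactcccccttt
RPS6KB2 exon 9, chr11:67433106-67433236, plus strand: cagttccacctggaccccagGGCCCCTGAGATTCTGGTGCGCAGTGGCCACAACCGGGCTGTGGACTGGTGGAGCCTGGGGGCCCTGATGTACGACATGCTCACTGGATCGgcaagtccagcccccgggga
RPS6KB2 acceptors of the cassette exon, chr11:67432333-67432375, plus strand: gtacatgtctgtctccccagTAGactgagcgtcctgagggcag
RICTOR cassette exon, chr5:38949336-38949447, minus strand: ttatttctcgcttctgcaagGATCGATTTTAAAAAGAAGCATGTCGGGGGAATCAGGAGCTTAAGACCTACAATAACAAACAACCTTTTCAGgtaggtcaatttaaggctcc
TSC1 exon 8, chr9:132921343-132921456, minus strand: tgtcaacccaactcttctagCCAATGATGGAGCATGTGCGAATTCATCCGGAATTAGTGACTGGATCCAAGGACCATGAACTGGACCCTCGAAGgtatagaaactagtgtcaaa
TSC1 acceptors of exon 12, chr9:132910670-132910712, minus strand: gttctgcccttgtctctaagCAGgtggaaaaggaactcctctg
TSC2 exon 26, chr16:2077578-2077746, plus strand: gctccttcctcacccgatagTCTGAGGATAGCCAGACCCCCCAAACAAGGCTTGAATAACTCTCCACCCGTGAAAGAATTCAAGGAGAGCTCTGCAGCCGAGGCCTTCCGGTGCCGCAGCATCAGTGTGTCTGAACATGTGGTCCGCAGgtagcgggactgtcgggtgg
TSC2 exon 32, chr16:2082416-2082524, plus strand: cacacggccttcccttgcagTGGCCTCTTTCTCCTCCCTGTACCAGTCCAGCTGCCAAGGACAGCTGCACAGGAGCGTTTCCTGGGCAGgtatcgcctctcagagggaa
TSC2 acceptors of exon 27, chr16:2079012-2079054, plus strand: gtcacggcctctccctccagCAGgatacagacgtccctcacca

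To learn whether SAM68 changed the splicing of these genes, all 66395 events were fitted, each type of event on its own. None of the 125 member events was called (adjusted p under 0.05 in the quasi-binomial test and a change of at least 10 points), where 62 events of all genes were, or 0.0934%. The smallest adjusted p among the members was 0.699. At an unadjusted p under 0.05 there were 2 member events, 1.60% of them, against 5.95% of all events. With limma on the logit of PSI, 0 members had an adjusted p under 0.05, but that test gave one to only 4 of all events (0.00602%) and called 3 of them (0.00452%). At a minimum of 20 reads, 0 of 118 members and 0.0993% of all events were called. The likelihood ratio test, which pools the reads of a group and so leaves out the spread between libraries, called 0 members and 2.04% of all events. Without the limit of 10 points it gave an adjusted p under 0.05 to 2 members, exon 4 of *RPS6KB1* and exon 9 of *RPS6KB2*, or 1.60%, and to 6.24% of all events. PSI was higher in 55 and lower in 70 member events, with a median change of -0.122 points. The median absolute change was 1.11 points in the members and 1.24 points in all events. A change of 10 points or more was seen in 3 members (2.40%), against 7.16% of all events. The groups did not overlap in 8 members (6.40%), against 6.13% of all events. Changes ran from -13.5 to 9.64 points.

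**Figure D1:**
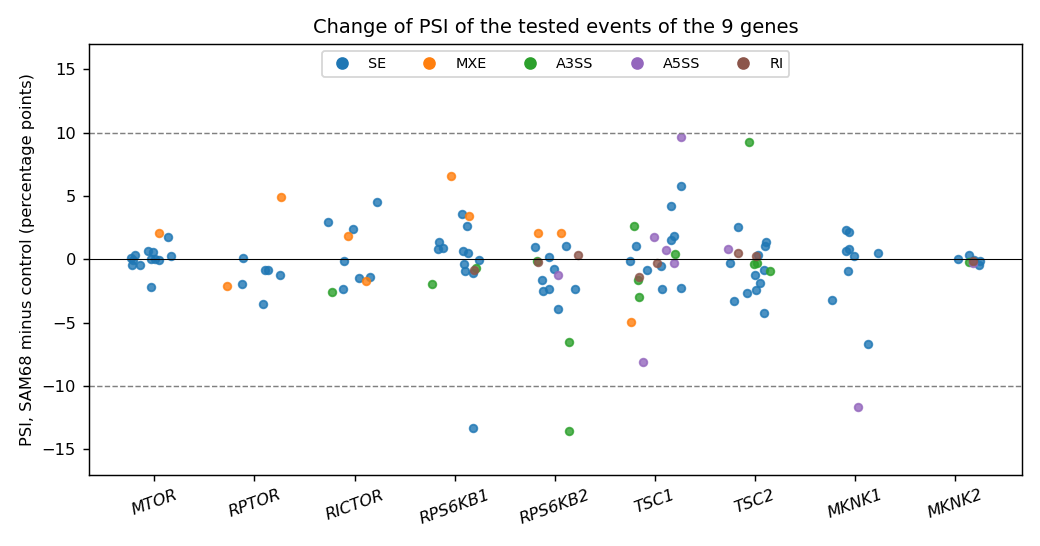
Change of PSI (SAM68 minus control, percentage points) of each of the 125 tested events, 1 point per event, by gene and coloured by type of event, with dashed lines at -10 and 10 points. The 3 points beyond the lines belong to RPS6KB1, RPS6KB2 and MKNK1, and none was called.

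Most member events were almost completely spliced to one form. Mean PSI was over 90% in 76 events and under 10% in 32, which left 17 between 10% and 90%. Of these 17, 6 were MXE rows and 11 were of other types. In the MXE rows of *MTOR*, *RPTOR*, *TSC1* and *RPS6KB1* that lay in this range, exons were paired as alternatives although SE rows had them included together (exons 49 and 50 of *MTOR* at 99.9% and 98.5% mean PSI). The sixth MXE row paired exons 9 and 11 of *RICTOR*, of which exon 9 alone had a tested SE row. Retained introns were rare: the 8 RI events, in 5 genes, had mean PSI from 0.156% to 3.71% and changes from -1.38 to 0.538 points. The RI table listed no intron of *MTOR*.

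**Figure D2:**
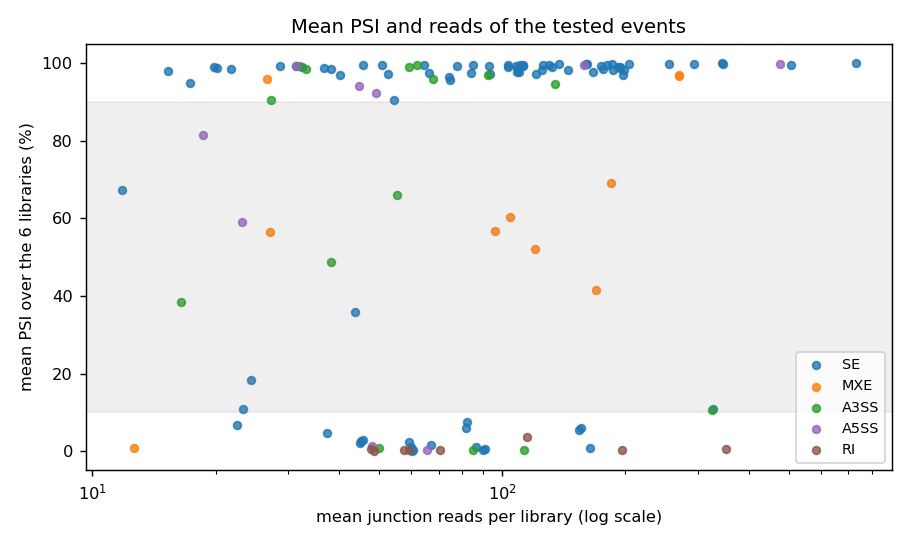
Mean PSI over the 6 libraries (%) against mean junction reads per library (log scale) for the 125 tested events, coloured by type, with the range of 10% to 90% shaded. Only 17 events fall in the shaded range, and the reads run from 11.8 to 730 per library.

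*MTOR* (chr1:11106535-11262556, minus strand, 58 exons) had 14 tested events, 13 of them exons, with changes between -2.19 and 2.05 points. The event with the smallest p was exon 13, read between exons 11 and 14 and included at 100%, 96.4% and 98.2% in the control libraries and at 100% in each SAM68 library. Its skipping rested on 3 control reads (p = 0.156, adjusted p = 0.699, quasi-binomial test), and 0 of 362 SAM68 reads allow a share of up to 0.829%. A 240-nt exon between exons 54 and 55, annotated only in a transcript of the retained intron class and named after its values were seen, was read at 0.707% ± 0.835 in control and 0.790% ± 0.779 in SAM68 libraries (SD, n = 3). The MXE row of exons 49 and 50 gave 69.6%, 67.7% and 66.8% in control and 69.9%, 75.7% and 64.8% in SAM68 libraries. These groups overlapped, and the 95% interval of the difference, from reads summed by group and the shared dispersion, was -7.18 to 10.8 points.

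*RPTOR* (chr17:80544819-80966371, plus strand), the mTORC1 scaffold that brings in substrates, had 8 tested events and changes between -3.56 and 4.93 points. Exon 5 had the smallest p: it was included at 100% in all control libraries and at 94.1%, 100% and 100% in the SAM68 libraries, with 3 skipping reads in 1 library (p = 0.174, adjusted p = 0.699, quasi-binomial test). The 60-nt exon 7 was at 96.2%, 98.3% and 98.0% in control and at 91.4%, 94.1% and 96.3% in SAM68 libraries. The groups touched at 96.2% and 96.3%, and the change of -3.56 points did not pass the test (adjusted p = 0.699). The MXE row of exons 4 and 5 was at 46.6%, 55.4% and 47.1% in control and at 61.1%, 43.3% and 59.4% in SAM68 libraries, overlapping (49.7% ± 4.95 and 54.6% ± 9.82, SD, n = 3; interval of the difference -6.81 to 16.4 points). Its change of 4.93 points was 7.79 without the second listed control library, and 1.68, 10.6 and 2.54 without the first, the second and the third SAM68 library in turn.

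*RICTOR* (chr5:38937920-39074402, minus strand), the subunit that defines mTORC2, had 10 tested events, with at most 40.3 reads on average. A 72-nt cassette exon between exons 31 and 32 (chr5:38949356-38949427), coding in 2 annotated transcripts and absent from the canonical one, was at 18.6%, 20.6% and 9.38% in control and at 31.8%, 9.73% and 20.6% in SAM68 libraries. The groups overlapped, and the interval of the difference reached from -9.59 to 24.7 points, so a change of 10 points was not detectable at this depth. This exon was named after its values were seen. Exon 9, with the smallest p, was at 97.6% ± 2.16 in control and 100% in every SAM68 library (SD, n = 3; adjusted p = 0.699, quasi-binomial test). The MXE row of exons 9 and 11 was at 55.3%, 51.8% and 59.4% in control and at 49.2%, 66.4% and 56.4% in SAM68 libraries, whose range held that of the controls.

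*TSC1* (chr9:132891348-132946874, minus strand), which encodes hamartin, had the most tested events, 22, with changes from -8.11 to 9.64 points. The smallest p belonged to an A5SS row whose short form joins exon 4 to exon 6, so that it counts the skipping of exon 5. There were 1, 0 and 6 such reads in the control and 0, 0 and 1 in the SAM68 libraries. PSI was 96.0%, 100% and 71.4% against 100%, 100% and 96.4% (p = 0.101, adjusted p = 0.822, quasi-binomial test), and 1 control library carried the difference. Without that library the change was 0.788 points. In the SE row of exon 5 the same skipping reads stood against more inclusion reads, and PSI was 97.6%, 100% and 87.9% in control and 100%, 100% and 98.2% in SAM68 libraries, a change of 4.22 points. The MXE row of exons 4 and 5 was at 59.4%, 64.8% and 64.0% in control and at 51.1%, 70.0% and 52.3% in SAM68 libraries, overlapping, with an interval of the difference from -17.2 to 7.01 points. Exon 8 (74 nt) was skipped by 4, 4 and 2 reads in control and by 1, 0 and 0 in SAM68 libraries, with PSI of 89.3% to 96.8% and of 98.0% to 100%. The groups did not overlap, but the change of 5.76 points did not pass the test (adjusted p = 0.699) and was 3.62 points without the first listed control library. A donor 42 nt within exon 19 also separated the groups, with the longer form at 96.4% ± 3.95 in control and 88.3% ± 2.19 in SAM68 libraries (SD, n = 3; adjusted p = 0.822).

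A pair of acceptors 3 nt apart at exon 12 of *TSC1* was in mixed use in every library. The upstream site took 63.0%, 61.9% and 72.2% in control and 65.7%, 60.7% and 71.8% in SAM68 libraries, overlapping almost fully, with an interval of the difference from -14.2 to 17.1 points. A pair of donors 29 nt apart at the noncoding exon 1 was also mixed, at 58.8% ± 5.41 in control and 59.5% ± 6.75 in SAM68 libraries (SD, n = 3). Both were named after their values were seen.

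*TSC2* (chr16:2047967-2089491, plus strand), the partner with the GTPase-activating domain for RHEB, had 19 tested events. A pair of acceptors 3 nt apart begins exon 27, counted here after exon 25. The upstream site had 44.9%, 43.5% and 44.3% in control and 59.0%, 51.9% and 49.6% in SAM68 libraries. All SAM68 libraries lay above all control libraries, by 9.28 points on average, yet with 38.3 reads per library the event did not pass the test (p = 0.355, adjusted p = 0.805, quasi-binomial test, interval of the difference -10.4 to 29.2 points). Exon 26 (129 nt, coding), joined to the upstream acceptor of exon 27, was included at 13.7%, 18.3% and 4.58% in control and at 11.7%, 9.87% and 7.75% in SAM68 libraries, overlapping. Joined to the other acceptor it was at 6.17%, 8.06% and 5.49% in control and at 16.2%, 4.58% and 0% in SAM68 libraries, also overlapping. The 69-nt exon 32, which is in the canonical transcript, was nearly always skipped: 1, 0 and 0 inclusion reads in control and 5, 0 and 4 in SAM68 libraries, a PSI of 0.424% ± 0.734 and 2.94% ± 2.94 (SD, n = 3; adjusted p = 0.699).

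*RPS6KB1* (chr17:59893046-59950574, plus strand) encodes S6K1 and gave the smallest p of the 125 events. Exon 4 (69 nt, in frame, chr17:59914635-59914703) was included at 95.5%, 97.2% and 96.6% in control and at 100% in every SAM68 library. The skipping reads were 4, 3 and 4 in control and 0, 0 and 0 in SAM68 libraries, 2.35% of 468 reads against 0 of 400, which allows up to 0.750%. The groups did not overlap. The change was 3.59 points (SE 0.491, p = 0.0145, adjusted p = 0.699, quasi-binomial test), and the exact permutation test gave p = 0.1, its smallest for 3 against 3 libraries. The likelihood ratio test on pooled reads gave an adjusted p of 0.0106. The MXE row of exons 4 and 5 was at 38.9%, 35.0% and 45.8% in control and at 38.5%, 48.3% and 43.1% in SAM68 libraries, overlapping, with an interval of the difference from -6.68 to 13.3 points. An MXE row of exons 2 and 3 that also leaves out exon 4 was at 92.5% ± 1.03 and 99.1% ± 1.49 (SD, n = 3), again without overlap (adjusted p = 0.780). The 2 rows count overlapping parts of the gene and are not separate evidence.

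Between exons 6 and 7 of *RPS6KB1* lie exon 6a (75 nt, chr17:59930358-59930432) and exon 6c (253 nt, chr17:59930800-59931052), known from the short S6K1 forms. In the annotation both occur only in transcripts marked for nonsense-mediated decay. Exon 6a was included at 10.6%, 6.45% and 1.61% in control and at 14.9%, 4.24% and 7.38% in SAM68 libraries. Exon 6c, set against the direct junction of exons 6 and 7, was at 8.02%, 6.33% and 1.89% in control and at 6.76%, 4% and 9.68% in SAM68 libraries. Both sets overlapped, with intervals of the difference from -3.44 to 8.65 points for 6a and from -3.77 to 5.93 points for 6c. The direct junction from exon 6 to exon 7 had 86, 74 and 78 reads in control and 69, 72 and 56 reads in SAM68 libraries. The row that reads exon 6c after exon 6a was at 73.8% ± 22.7 in control and 60.6% ± 18.3 in SAM68 libraries (SD, n = 3), a change of -13.3 points on 11.8 reads per library (adjusted p = 0.699). It was -0.214 points without the second listed control library, -3.01 points without the first listed SAM68 library, -19.4 to -20.5 points without the first or the third control or the second SAM68 library, and -22.7 points from summed reads.

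The overlapping rows of these exons were then solved for single junctions, a step chosen after the data were seen. Exon 6 was joined to 6a by 11, 8 and 1 reads in control and by 10, 4 and 6 in SAM68 libraries. It was joined to 6c by 0, 0 and 0 reads in control and by 2, 0 and 8 in SAM68 libraries, all but 2 of the 10 from 1 library. Exon 6c was joined to exon 7 by 15, 10 and 3 reads in control and by 8, 6 and 4 in SAM68 libraries. Exon 6a was joined to 6c by 1, 3 and 0 reads in control and by 4, 0 and 0 in SAM68 libraries. The control PSI of exon 6c above thus rests on reads from 6c to exon 7 alone, and measures no choice made at exon 6. Of the reads leaving exon 6, 11.3%, 9.76% and 1.27% entered 6a or 6c in control, and 14.8%, 5.26% and 20% did with SAM68 (two-sided exact permutation p = 0.4). Of the reads entering exon 7, 11.9% ± 6.99 came from 6a or 6c in control and 12.3% ± 6.50 in SAM68 libraries (SD, n = 3; exact permutation p = 0.9). The 2 ends of the same exons thus gave different sizes of change, and neither exceeded the spread.

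**Figure D3:**
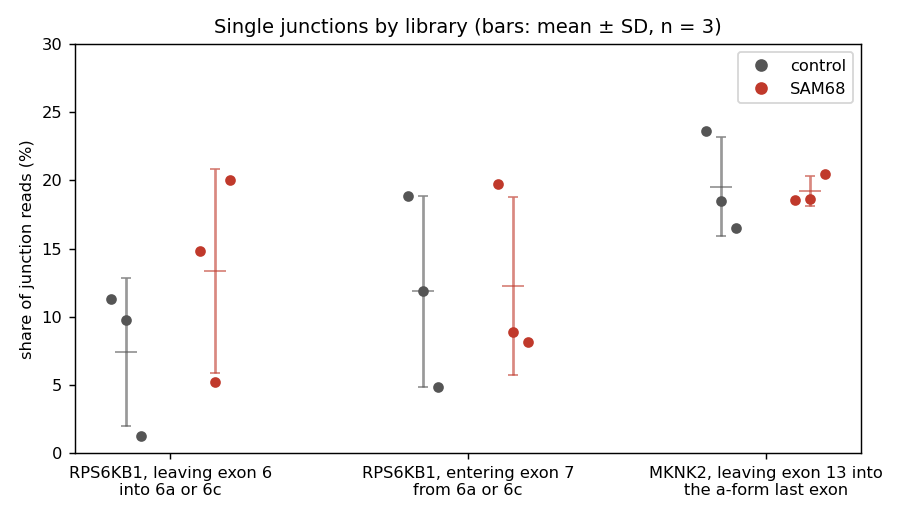
Share of junction reads (%) by library for RPS6KB1 reads leaving exon 6 into 6a or 6c, RPS6KB1 reads entering exon 7 from them, and MKNK2 reads leaving exon 13 into the a-form last exon. Points are libraries and bars are mean ± SD of 3, and the groups overlap in each.

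*RPS6KB2* (chr11:67428460-67435401, plus strand) encodes S6K2 and had 17 tested events. The smallest p came from an A3SS row whose short form joins exon 8 to exon 10. It counts the skipping of exon 9, the 91-nt exon that is followed by gc in place of the usual gt. The skipping reads were 4, 0 and 0 in control and 4, 1 and 12 in SAM68 libraries, and PSI was 93.9%, 100% and 100% against 94.5%, 98.6% and 81.1%. The groups overlapped, and 1 SAM68 library held 12 of the 17 SAM68 reads (change -6.56 points, p = 0.0486, adjusted p = 0.805, quasi-binomial test). Without it the change was -1.41 points. The likelihood ratio test on pooled reads gave an adjusted p of 0.0485, and in the SE row of exon 9 the same skipping reads gave 98.8% ± 2.05 in control and 94.9% ± 5.57 in SAM68 libraries (SD, n = 3). A cassette exon between exons 5 and 6 has acceptors 3 nt apart. Its longer form took 27%, 47.8% and 61.2% in control and 0%, 67.8% and 27.5% in SAM68 libraries, on 16.5 reads per library (change -13.5 points, adjusted p = 0.923). The change was 2.36 points without the first listed SAM68 library, -31.6 points without the second, -22.7 and -5.59 points without the first and the third control libraries, and -5.38 points from summed reads. Set against exon 5 in MXE rows, its 2 forms had fewer reads relative to exon 5 in every SAM68 library than in any control library, from counts they partly share. The row of the longer form had exon 5 at 95.8% ± 1.26 in control and 97.9% ± 0.498 in SAM68 libraries (SD, n = 3; adjusted p = 0.786). In the SE rows of the same cassette exon the groups overlapped: the longer form was at 7.08%, 6.80% and 6.18% in control and at 1.37%, 7.86% and 3.45% in SAM68 libraries, and the shorter form at 9.09%, 7.12% and 5.15% in control and at 3.49%, 5.15% and 5.81% in SAM68 libraries.

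*MKNK1* (chr1:46557407-46616843, minus strand) encodes MNK1. Its exon 12 (44 nt, chr1:46560234-46560277) decides how the protein ends: with it the annotated coding sequence runs 223 nt into the last exon, and without it 36 nt. The exon was included at 40.0%, 41.1% and 36.6% in control and at 26.3%, 41.3% and 30.2% in SAM68 libraries. One SAM68 library lay above all controls and the others lay below them, a change of -6.66 points that was -3.49 without the first listed SAM68 library and -11.0 without the second (SE 4.71, p = 0.416, adjusted p = 0.699, quasi-binomial test, interval of the difference -24.3 to 9.97 points). A noncoding 101-nt exon between exons 2 and 3 had the smallest p, with 4, 3 and 5 inclusion reads in control and 0, 0 and 2 in SAM68 libraries (3.88% ± 1.51 and 0.683% ± 1.18, SD, n = 3; adjusted p = 0.699). The groups did not overlap. A donor of exon 1 had wide spreads, at 87.3% ± 22.0 in control and 75.7% ± 12.4 in SAM68 libraries (change -11.6 points, SD, n = 3; adjusted p = 0.902), on 18.7 reads per library. The change was -5.28 points without the first or the third control library, -5.33 points without the second SAM68 library, -17.7 points without the first SAM68 library, -24.3 points without the second control library, and -5.81 points from summed reads.

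*MKNK2* (chr19:2037465-2051244, minus strand) encodes MNK2, whose a form binds MAP kinases through its own last exon while the b form ends in another. Its 8 tested events had 174 to 730 reads on average and the narrowest range of change of the 9 genes, -0.448 to 0.346 points. Reads from exon 13 entered the a-form last exon 81, 67 and 60 times in control and 63, 57 and 50 times in SAM68 libraries. They entered the b-form last exon 262, 295 and 303 times in control and 276, 249 and 194 times in SAM68 libraries. As a share, the a form took 23.6%, 18.5% and 16.5% in control and 18.6%, 18.6% and 20.5% in SAM68 libraries, with all SAM68 libraries inside the control range (19.6% ± 3.66 and 19.2% ± 1.09, SD, n = 3; exact permutation p = 1).

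The rMATS PSI of the same choice was 13.4%, 10.9% and 9.01% in control and 10.2%, 10.3% and 11.4% in SAM68 libraries (change -0.448 points, p = 0.789, adjusted p = 0.897, quasi-binomial test, interval of the difference -3.72 to 2.82 points). It is lower than the junction share because its length divides the inclusion reads over 2 junctions, and the second of them, from the a-form to the b-form exon, had 0, 5 and 0 reads in control and 0, 0 and 0 in SAM68 libraries. The event of *MKNK2* with the smallest p was a donor of exon 1, at 100% in the control libraries and at 99.2%, 100% and 100% in the SAM68 libraries (adjusted p = 0.822).

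**Figure D4:**
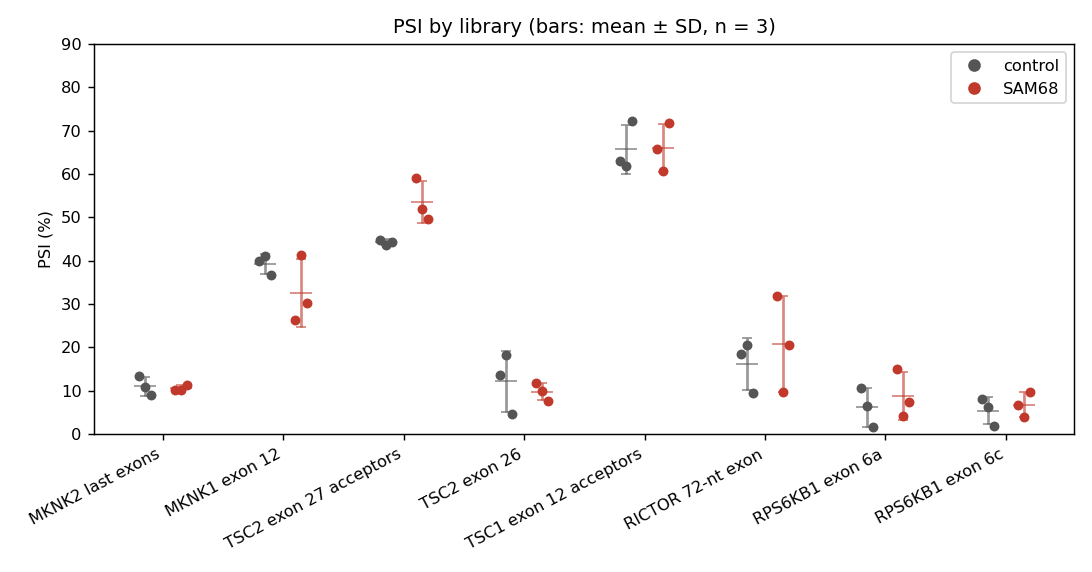
PSI (%) by library for 8 events of MKNK2, MKNK1, TSC2, TSC1, RICTOR and RPS6KB1, with points for the 3 control and 3 SAM68 libraries and bars for mean ± SD. The groups overlap in each except the TSC2 exon 27 acceptors, where the controls lie at 43.5% to 44.9% and the SAM68 libraries at 49.6% to 59.0%.

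Short motifs beside these exons were counted on the sense strand, in the exon and in the 100 nt of intron on either side: TAAA and TTAA, of the kind SAM68 binds, which overlap in TTAAA, and TAGG, of the kind hnRNP A1 binds. Exon 4 of *RPS6KB1* held 1 TAAA and 1 TTAA, found in 30.8% and 26.5% of the 38685 tested SE exons. Its upstream intron held 1 TAAA, 2 TTAA and 1 TAGG (40.9%, 44.3% and 20.5% of exons have at least 1). Downstream of exon 4 there was 1 TTAA. The *RICTOR* cassette exon held 1 TAAA and 2 TTAA, and its upstream intron 1 TAAA and 1 TAGG. Its downstream intron held 2 TAAA, 3 TTAA and 1 TAGG (42.1%, 41.5% and 28.8% of exons have at least 1 there). Exon 6c of *RPS6KB1* held 1 TTAA and 2 TAGG, the latter found in 14.2% of exons, with 2 TAAA and 4 TTAA upstream and 2 TAAA downstream. Exon 6a held none, with 1 TAAA upstream and 1 TAGG downstream. Exon 26 of *TSC2* and exon 9 of *RPS6KB2* held none of the 3 motifs in the exon or either window. Exon 13 of *MTOR*, exons 5 and 7 of *RPTOR*, exon 9 of *RICTOR* and exon 8 of *TSC1* held none within the exon. The same was true of exon 32 of *TSC2*, exon 12 of *MKNK1* and the a-form last exon of *MKNK2*. The 101-nt exon of *MKNK1* held 1 TTAA. Windows beside these further exons are not listed here. The shares are over exons of any length and are not matched to that of each exon. No test was made of these counts.

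Junction reads of the most-read event stood for the level of each gene. None of the 9 genes was called (limma, adjusted p under 0.05 and an absolute log2 difference of at least 1), where 5 of 10146 genes were, or 0.0493%. At an unadjusted p under 0.05 there were 2 of the 9 genes, against 12.1% of all genes. *RICTOR* was at 6.55, 10.02 and 9.87 rpm in control and at 2.53, 4.77 and 7.34 rpm in SAM68 libraries. The groups overlapped, with a log2 difference of -0.87 (SE 0.322, adjusted p = 0.244). Summing all SE events of *RICTOR* gave a difference of -0.25 (adjusted p = 0.542), so the size rests on 1 event. *MKNK2* was at 142, 124 and 129 rpm in control and at 106, 127 and 117 rpm in SAM68 libraries, a log2 difference of -0.17 (SE 0.0826, adjusted p = 0.412). The other members had log2 differences from -0.31 (*TSC2*) to 0.17 (*MKNK1*), and the direction of *TSC2* and *RPS6KB2* turned when all SE events were summed. These are bulk samples, so fewer cells with a transcript and less RNA per cell cannot be told apart.

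**Figure D5:**
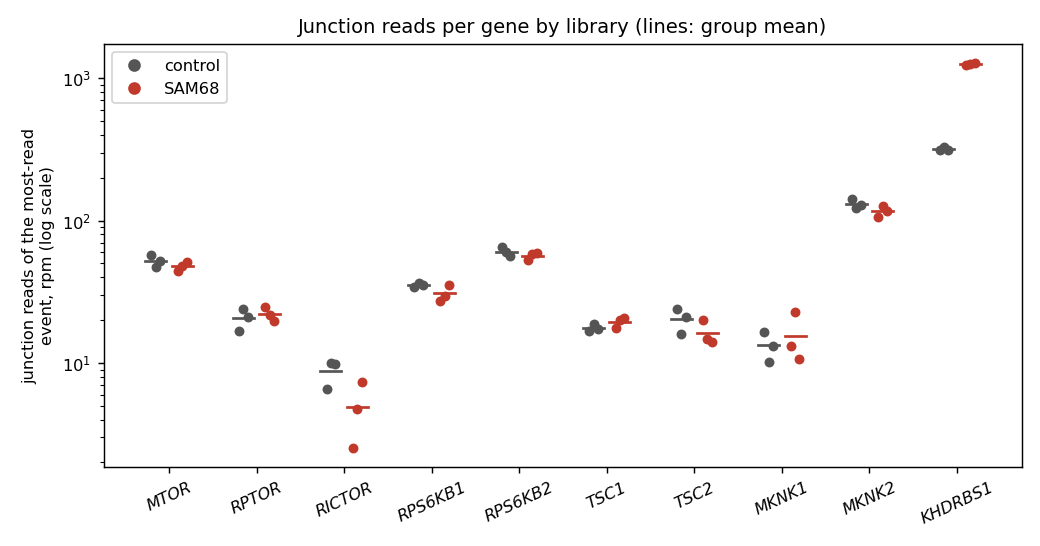
Junction reads of the most-read event of each member gene and of KHDRBS1 (rpm, log scale) by library, with lines at the group means. KHDRBS1 lies at 311 to 328 rpm in control and 1230 to 1276 rpm in SAM68 libraries, while the groups of each member gene overlap.

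The wider pathway was read from a list of 62 further genes: subunits and chaperones of the mTOR complexes, amino acid and energy sensing, the PI3K arm and substrates. Of these, 51 had 487 tested events, and 0 were called in either direction, although 6 (1.23%) had an adjusted p under 0.05 with a smaller change (quasi-binomial test), against 0.259% of all events at any change. At an unadjusted p under 0.05 there were 51 events (10.5%, against 5.95% of all events), 27 higher and 24 lower, and the median change was 0.0197 points. The smallest p was in *EIF4A1*, the helicase of the cap-binding complex, in an A3SS event at 95.8%, 99.2% and 99.98% in control and at 95.5%, 94.9% and 95.7% in SAM68 libraries (change -2.97 points, adjusted p = 1.17e-16). Its control libraries were far apart, with 173, 35 and 1 reads of the shorter form. The other events of the 6, named after their values were seen, were 2 MXE rows and 1 A3SS row of *EIF4A1* and 2 MXE rows of *EEF2*, the elongation factor that moves the ribosome along. One *EEF2* row was at 43.5%, 44.5% and 44.7% in control and at 40.6%, 42.0% and 39.5% in SAM68 libraries (change -3.54 points, adjusted p = 1.23e-07), and the other had a change of 2.53 points (adjusted p = 0.000698). The 6 events had 4411 to 14430 reads on average, against a median of 85 in the member events. They are not all separate evidence: the first *EIF4A1* row and 1 of its MXE rows both had 3995 inclusion reads in the first listed control library. MXE rows can pair exons that are included together, as in the members, and no SE row was set beside these. Over all 487 events the groups did not overlap in 41 (8.42%), against 6.13% of all events.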

How the data were processed

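RNA-seq of 6 libraries, 3 per group, was analysed from tables of alternative splicing events. Reads were paired-end, from a NovaSeq. The authors filtered adaptor and low-quality reads, trimmed the start of each read and mapped with HISAT2 against GRCh38 lacking alternate contigs. They then ran rMATS, whose version is not given in the sources used here. The submitters' processing notes name CASAVA 1.4, fastp 0.20.0 and HISAT2 2.1.0. The authors deposited junction read counts and inclusion levels (a fraction) as lists of 3 values per group, without replicate numbers, so libraries are given in list order. The tables also hold the authors' p-value and FDR and, as a score, the difference of inclusion levels, which were not used. Effective lengths, in the same deposited files as the counts, were taken as given. Which list is the control was read from the published plots, since the column names give only SAMPLE_1 and SAMPLE_2.

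Of 78336 rows, 275 of the A3SS table had counts regrouped by a spreadsheet. Of these, 162 were recovered from the listed levels and 113 were left out, none of them of the 9 genes, and 2 A3SS rows of *RPS6KB2* that also allow another reading were taken as printed. PSI was computed from the counts and effective lengths. Counts were fitted with a quasi-binomial model with dispersion moderated within each type (limma 3.58.1, R 4.3.3), shared within a type at 2.01 to 2.53 and so too small for an event with a wider spread, and p-values were adjusted by Benjamini-Hochberg within type over all tested events. For genes, log2(rpm + 0.5) was tested with limma over 10146 genes. Single values were tested with exact two-sided permutation tests. The 95% intervals use the summed reads, need 10 reads of each form in each group, and cover no spread beyond the shared dispersion. Limits for a count of 0 use 3 reads and cover counting error only. Both tests were tried on simulated counts with large planted changes, at a fixed spread for each test. The changed events lay in the middle of the PSI range. The trial therefore does not cover small changes, events almost completely spliced to one form, or wider spreads. Libraries of a group differed by more than sampling noise (chi-square per degree of freedom of 3.14 to 3.51 in control and 3.56 to 4.53 in SAM68 pairs), so none was a duplicate.

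The members and gene lists were chosen with earlier results of these data known. Values by library are given for events that were called, that had the smallest p in their gene, that were most read with a PSI of 10% to 90%, and for the exons named for *MKNK2*, *RPS6KB1*, *TSC2* and *MKNK1*. Others were named after their values were seen: exon 7 of *RPTOR*, exon 8, exon 12 and the donors of *TSC1*, the *RICTOR* cassette exon, the *RPS6KB1* row of exons 2 and 3, the *RPS6KB2* rows of exon 5 and the exon 1 donor of *MKNK1*. The events nearest the limit of 10 reads were an *RPS6KB1*, a *RICTOR* and a *TSC2* row at 11.8, 12.7 and 15.3 reads inside it, and a *RICTOR*, an *RPS6KB1* and a second *RICTOR* row at 9.83, 9.67 and 9.33 reads outside it. Alternatives covered the test, the minimum of reads, the limit on the change, the adjustment, the lengths, the scaling, the pseudocount and each library left out.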

Additional observations from a re-analysis of the deposited data

How the results depend on the processing

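No member event was called under 15 of 16 other settings, and no member gene under 11. The exception, the likelihood ratio test on pooled counts together with no limit on the change, was chosen after seeing the data and called 2 events, exon 4 of *RPS6KB1* (adjusted p = 0.0106) and exon 9 of *RPS6KB2* (adjusted p = 0.0485). That test takes no account of the spread between libraries. Other settings called few events of any gene: 0.00301% with each event's own dispersion, and 0.0799% to 0.113% with 1 library left out. At such shares an absence of member calls tells little. In the further pathway genes, 11 of 487 events were called by the likelihood ratio test on pooled counts, which called 2.04% of all events. At a minimum of 20 reads, 1 of 453 was called (*NPRL2*), where 0.0993% of all events were. Leaving out 1 library gave 0 to 1, where 0.0799% to 0.113% of all events were called. *NPRL2* changed by 22.9 points without the first listed control library and *EIF4G1* by -55.8 points without the third. *LAMTOR4* changed by 36.9 points without the third SAM68 library. No paired analysis was possible because the lists print no replicate numbers. Leaving out 1 library moved 28 of the 33 named changes, all uncalled, by over 1.5 times. The 5 that moved less were *RPS6KB1* exon 4 (3.13 to 3.97) and exons 2 and 3 (6.06 to 7.46), the *TSC1* exon 19 donor (-10.2 to -6.31), *TSC2* exon 27 acceptors (6.52 to 11.2) and the 101-nt exon of *MKNK1* (-3.88 to -2.36). Ranges without a turn were -11.1 to -1.61 for *TSC1* and 0.865 to 6.33 for *RPS6KB1* exons 4 and 5, 1.04 to 3.98 for *TSC2* exon 32, and -4.72 to -2.3 for *RPTOR* exon 7. Several uncalled changes turned direction when 1 library was left out, and the cause was not tested: the *MTOR* row of exons 49 and 50 (-0.727 to 4.72), the *RICTOR* row of exons 9 and 11 (-2.72 to 5.86), the *RICTOR* cassette exon (-1.03 to 10), *TSC1* exon 12 acceptors (-2.46 to 3.64) and exon 1 donors (-3.17 to 3.37), *TSC2* exon 26 (-6.24 to 0.622), *RPS6KB1* exon 6a (-0.409 to 4.94) and exon 6c (-0.364 to 2.8), the *RPS6KB2* cassette acceptors (-31.6 to 2.36), and the *MKNK2* last exons (-1.49 to 0.701 as the SE row, -1.15 to 1.04 as the A3SS row and -1.83 to 1.72 by junction), all in points. For gene levels the log2 ranges were -0.0362 to 0.212 (*RPTOR*) and -0.132 to 0.398 (*MKNK1*), and summing all SE events gave 0.105 for *RPS6KB2* and 0.000521 for *TSC2*. Depth limits these results: most intervals of mixed events reach beyond 10 points, and *MKNK2* alone among the mixed cassette events has one within 4 points. That interval is on the rMATS PSI, which is lower than the junction share of the same choice. No interval was made for the share, so its precision is not given.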
